A study of Mus musculus with 5 samples.

Results

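Abcam133737 and Abcam76013 are a pair of antibodies against the transcription factor NKX2-1, each used for 1 chromatin immunoprecipitation and sequencing (ChIP-seq) library from whole lung. Their deposited peak lists were compared by merging every peak of one list with the peaks of the other that it overlapped by at least 1 bp. This gave 48202 regions. A separate merge of the lists of all 4 antibodies of the series gave 68919. Of the 48202 regions, 33099 held a peak of both antibodies (68.7%, exact 95% interval 68.3% to 69.1%), 7315 a peak of Abcam133737 alone (15.2%) and 7788 a peak of Abcam76013 alone (16.2%). The first are called regions of both lists here, and the others single-list regions.

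The mice were wild-type and 10 days old (postnatal day 10), and the labels name no other allele and no treatment in any group. They differed in the antibody: Abcam133737, Abcam76013, Millipore07-601 or Abcam133638, with 1 library each, and 1 library of input chromatin without immunoprecipitation served all 4 as control. Per the labels' protocol the lungs were fixed, their nuclei sonicated and the chromatin pooled before the immunoprecipitations, so the antibodies may have shared 1 preparation, and the labels name no separate animals. With 1 library per antibody no difference between antibodies could be tested. All intervals below cover counting error only, and lot, immunoprecipitation and antibody cannot be told apart.

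NKX2-1 is a homeodomain factor that specifies lung and thyroid epithelium and part of the ventral forebrain. In the lung it is present in the epithelium from the first buds onward, and it directly activates the surfactant genes of alveolar type 2 cells, the cuboidal cells that store and secrete surfactant. Alveolar type 1 cells, the thin cells across which gas is exchanged, also carry it. Its homeodomain recognises a DNA core with the letters CTCAAG or the letters CACTTGA, unlike most homeodomains. Whole lung also holds endothelial, mesenchymal and immune cells, which lack the factor, and a peak in whole lung does not say in which cell the DNA was bound.

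The promoter sequences that follow are picked examples of the 3 classes of region and do not show how often a class carries the marked letters. Most windows of each class held none of them. The sequences were taken from the RefSeq promoter table (build GRCm38.p6, the coordinates of which equal those of mm10), which lists 21262 transcription starts of 17491 genes. Each is the 250 bases before a start whose window, 250 bases before to 50 after, held the summit of a region, written 5′ to 3′ on the strand of the gene. Capitals mark the letters CTCAAG, those of CACTTGA and those of CACTCAA, on either strand. CTCAAG and CACTCAA can overlap, as in the first match in Sdhaf1. A summit of both lists lay at the start of Sftpa1, which encodes surfactant protein A (chr14:41131538-41131787, plus strand), and at that of Sdhaf1, an assembly factor of succinate dehydrogenase (chr7:30322376-30322625, minus strand).
Sftpa1: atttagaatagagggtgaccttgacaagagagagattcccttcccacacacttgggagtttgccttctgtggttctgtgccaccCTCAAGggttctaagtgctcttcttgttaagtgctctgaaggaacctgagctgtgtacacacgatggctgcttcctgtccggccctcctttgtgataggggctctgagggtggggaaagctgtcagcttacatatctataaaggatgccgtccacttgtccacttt
Sdhaf1: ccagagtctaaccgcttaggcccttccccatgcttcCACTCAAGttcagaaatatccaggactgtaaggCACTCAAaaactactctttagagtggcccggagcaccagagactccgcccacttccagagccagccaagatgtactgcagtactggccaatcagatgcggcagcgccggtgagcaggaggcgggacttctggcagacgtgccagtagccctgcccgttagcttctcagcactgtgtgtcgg
A summit of Abcam133737 alone lay 12 bp from a start of Lmna, which encodes the nuclear lamins A and C (chr3:88503353-88503602, minus strand), and 11 bp from that of Mab21l3 (chr3:101836224-101836473, minus strand).
Lmna: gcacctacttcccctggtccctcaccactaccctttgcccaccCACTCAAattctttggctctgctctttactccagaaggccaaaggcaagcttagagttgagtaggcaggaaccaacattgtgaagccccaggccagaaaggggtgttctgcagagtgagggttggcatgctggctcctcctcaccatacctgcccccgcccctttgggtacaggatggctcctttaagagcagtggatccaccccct
Mab21l3: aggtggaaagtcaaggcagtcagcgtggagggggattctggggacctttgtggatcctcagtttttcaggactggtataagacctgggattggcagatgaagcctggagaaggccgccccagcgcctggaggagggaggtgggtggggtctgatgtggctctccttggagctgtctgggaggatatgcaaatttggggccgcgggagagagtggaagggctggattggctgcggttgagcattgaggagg
A summit of Abcam76013 alone lay 80 bp from a start of Pias3, a SUMO ligase that binds STAT3 (chr3:96696125-96696374, plus strand), and 41 bp from that of Gtf2h5, a subunit of the transcription and repair factor TFIIH (chr17:6079578-6079827, plus strand).
Pias3: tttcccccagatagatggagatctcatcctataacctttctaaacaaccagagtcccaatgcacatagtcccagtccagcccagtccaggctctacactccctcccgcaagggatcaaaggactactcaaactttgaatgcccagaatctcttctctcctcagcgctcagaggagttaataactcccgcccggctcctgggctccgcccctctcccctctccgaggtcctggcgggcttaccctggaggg
Gtf2h5: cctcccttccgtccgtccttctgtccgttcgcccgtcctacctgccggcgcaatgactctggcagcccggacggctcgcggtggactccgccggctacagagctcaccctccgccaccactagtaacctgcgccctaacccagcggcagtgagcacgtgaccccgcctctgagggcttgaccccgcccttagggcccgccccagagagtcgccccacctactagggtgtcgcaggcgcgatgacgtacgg

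The value behind these examples was the pileup at the summit, the number of extended tags that cover it, divided by the filtered tags of the library and given per 1000000 of them (ppm). At Sftpa1 it was 1.57 ppm with Abcam133737 and 1.66 with Abcam76013, and at Sdhaf1 3.22 and 3.21. At Lmna it was 1.01 with Abcam133737, and the libraries without a role in the pair gave 0.883 (Millipore07-601) and 0.692 (Abcam133638). The Mab21l3 summit had 0.945 in the Abcam133737 library, against 1.14 (Millipore07-601) and 1.34 (Abcam133638). These 2 promoters thus held a peak of 3 of the 4 antibodies. The Pias3 summit gave 0.904 with Abcam76013, 1.23 with Millipore07-601 and 1.30 with Abcam133638. The Gtf2h5 summit gave 0.796, 0.906 and 1.07 in the same order. Irf2bp2, whose sequence is not printed, ranked between them with 0.839 in the Abcam76013 library. It had 1.03 with Abcam133638 and no Millipore07-601 peak. These were among the highest pileups of a single-list region at a start, and each was lower than the pileups of Sftpa1 and Sdhaf1.

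Over all listed starts, 4613 windows held a summit of a region of both lists (21.7%), 785 one of Abcam133737 alone (3.69%) and 558 one of Abcam76013 alone (2.62%). At least 1 of the 3 letter strings stood in 21.3% of the windows of both lists (20.1% to 22.5%), in 14.3% of those of Abcam133737 alone (11.9% to 16.9%) and in 15.6% of those of Abcam76013 alone (12.7% to 18.9%). It stood in 18.5% of all windows, and in 18.0% of those with no region. CTCAAG alone was found in 17.9%, 12.4% and 14.0% of the 3 classes and in 15.3% of all windows. CACTTGA was found in 2.28%, 1.91% and 2.15% against 2.95% of all windows, and CACTCAA in 4.55%, 2.42% and 1.61% against 3.43%. The windows with a region were richer in G and C than the others. The median was 61.3% for both lists, 62.7% for Abcam133737 alone and 61.3% for Abcam76013 alone, against 53.7% for windows with no region, and the median number of CpG was 21, 23, 21 and 7. The part of base composition in the shares of letter strings was not tested.

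The pair of libraries was closely matched in depth. Abcam133737 had 46547989 filtered tags and 40877 peaks, and Abcam76013 had 46472700 filtered tags and 41296 peaks, so that 1 tag was worth 0.0215 ppm in both. Peaks covered 12.1 and 12.3 Mb, and the fragment length the caller used was 155 and 158 bp. The other antibody libraries had 43031331 and 44777214 filtered tags but longer lists, 57763 peaks for Millipore07-601 and 57891 for Abcam133638. Of the peaks of Abcam133737, 82.1% lay in a region of both lists, and of those of Abcam76013, 81.1%. The share of regions with both antibodies ran from 64.7% on chromosome X, the lowest of chromosomes 1 to 19 and X, to 70.9%.

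Regions of both lists had nearly the same pileup with either antibody. The median was 0.644 ppm with Abcam133737 and 0.646 with Abcam76013, or 30 tags in each, and the 90th percentile was 1.40 and 1.42. The log2 ratio of Abcam133737 over Abcam76013 had a median of -0.02 and an SD over regions of 0.30, with a 5% to 95% range of -0.51 to 0.47. The counting SD of that ratio, from the tags of a region, had a median of 0.37, which was wider than the spread over these regions, all of which had passed the peak caller in both libraries. Across the 33099 regions Spearman's rho of the 2 pileups was 0.863 (0.833 for fold enrichment), a description over regions that share an input, a tissue and a peak caller. Summits lay a median of 23 bp apart, and 93.7% were within 100 bp. The plot of pileup with one antibody against the other shows this band.

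**Figure D1:**
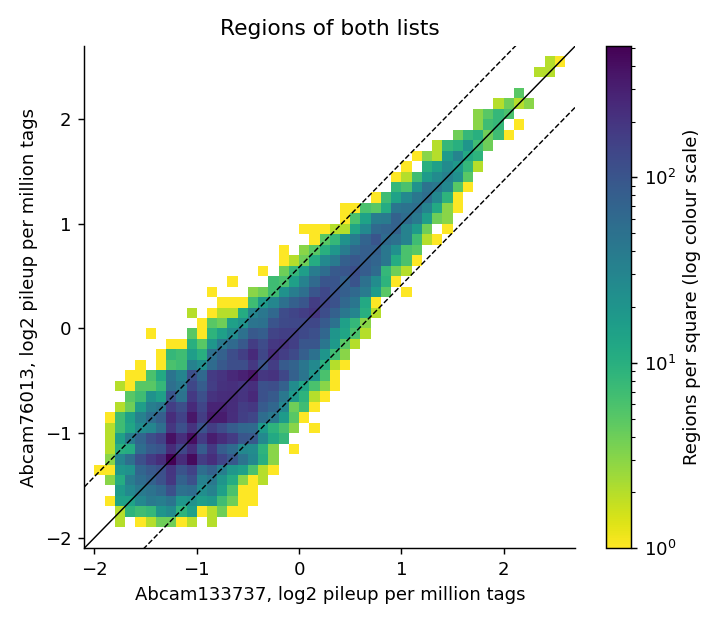
Pileup in ppm (per 1000000 filtered tags) of the 33099 regions of both lists on log2 axes, Abcam133737 across and Abcam76013 up, with the number of regions per square in colour; the solid line marks equal values and the dashed lines a ratio of 1.5. Regions gather along the line of equal values, 94.6% of them between the dashed lines, and the band narrows toward high pileup.

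The pileup of 708 regions was at least 1.5 times higher with Abcam133737, which is the background of 2.14% of regions past that fold. For Abcam76013 the number was 1072, or 3.24%. After scaling by the median ratio the numbers were 828 and 920. A ratio of at least 2 was seen in 12 and 34 regions. The exact counting interval of the ratio excluded 1 in 392 regions (1.18%), 148 of them higher with Abcam133737 and 244 with Abcam76013. Past 30 tags the ratio narrowed with depth. Its SD was 0.31 at 30 to 39 tags, 0.26 at 40 to 59 tags and 0.19 at 60 tags and above, and in that last group 1 region was past the fold of 1.5 with Abcam133737 and 19 with Abcam76013. The strongest regions were the same ones: of the 1000 regions with the highest fold enrichment in each library 833 were in common, and each of these 1000 had a peak in the other list.

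Genes of the alveolar epithelium had strong regions of both lists with like pileups. The 26 anchor genes were chosen for their known place in lung epithelium, with earlier results of these data known. Of these, 25 had a region of both lists within 10 kb of a gene end, against 54.3% of all protein-coding genes. Foxj1, the master regulator of motile cilia, had none. The median ratio at the strongest such region of each gene was 0.947, from 0.703 at Hopx to 1.24 at Sftpd, and no counting interval excluded 1. All 25 regions recurred in the lists of Millipore07-601 and Abcam133638, as did 96.8% of all regions of both lists.

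Among the surfactant genes, the region 6.02 kb from Sftpc (mm10, chr14:70529712-70531080) gave 2.79 ppm with Abcam133737 and 3.31 with Abcam76013 (ratio 0.843, counting interval 0.662 to 1.07). It lay inside the neighbouring gene Lgi3. The region 0.324 kb from Sftpb (chr6:72303545-72305150) gave 2.56 and 2.35 (1.09, 0.833 to 1.43). Sftpd, which encodes the collectin surfactant protein D, had the highest ratio of the anchors with 2.21 and 1.79 (1.24, 0.919 to 1.67). Abca3, the lipid transporter of the lamellar bodies in which surfactant is stored, had 1.61 and 1.38 at a region inside the gene. The ratios of these 4 genes lay on either side of 1, and none departed from it beyond counting error.

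Most alveolar type 1 anchors were lower with Abcam133737, though not all, and each difference was within counting error. At Ager, Hopx, Col4a3, Aqp5, Pdpn, Icam1 and Akap5 the pileup was lower with Abcam133737. At Cav1 (1.74 and 1.68 ppm) and Cldn18 (2.75 and 2.54) it was higher, and at Rtkn2 (0.709 and 0.710) nearly equal. Over all 25 anchors with a region, 8 were higher with Abcam133737 and 17 with Abcam76013. Ager, which encodes the receptor for advanced glycation end products and is the classical marker of these cells, had 1.53 ppm with Abcam133737 and 1.98 with Abcam76013 at chr17:34597501-34597920, 0.262 kb from its end (ratio 0.770, 0.557 to 1.06). The homeodomain-only gene Hopx had the lowest pileups of the anchors, 0.408 and 0.581, or 19 and 27 tags (0.703, 0.369 to 1.31). Col4a3, a collagen IV chain of the alveolar basement membrane, had the highest, 3.95 and 4.33 (0.914, 0.744 to 1.12), at chr1:82577792-82578284, 8.91 kb away and inside its neighbour Col4a4. Nkx2-1 itself had 2.17 and 2.11 at chr12:56534956-56535450, inside the gene and 1.66 kb from its end (1.03, 0.772 to 1.37). Values with Millipore07-601 were higher than with either antibody of the pair at each of the 25 genes: 4.69 at Sftpc, 5.81 at Col4a3 and 2.84 at Nkx2-1, for example.

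**Figure D2:**
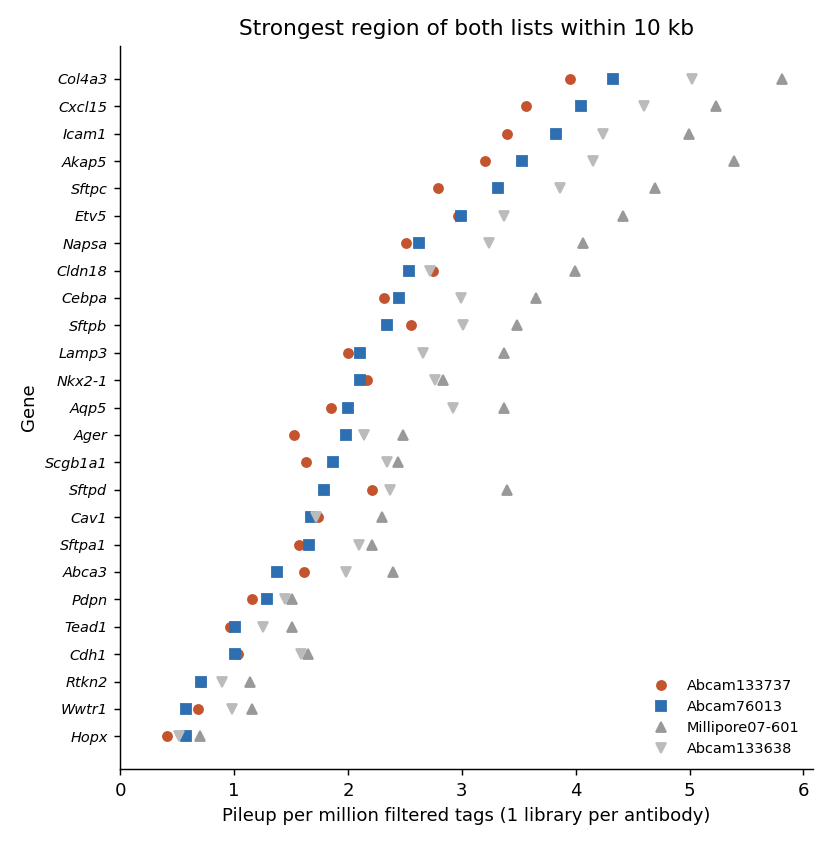
Pileup in ppm (per 1000000 filtered tags) at the strongest region of both lists within 10 kb of each of 25 anchor genes, 1 point per antibody library, ordered by the value with Abcam76013. The points of Abcam133737 and Abcam76013 lie close together from Hopx (0.408 and 0.581) to Col4a3 (3.95 and 4.33), and those of Millipore07-601 lie to their right.

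The 20 regions with the largest ratios, 10 each way among regions with at least the median pileup in 1 or both libraries, were chosen for their difference, so their values are a description. Each reached that median on its high side only, with 14 to 26 tags in the other library. On the side of Abcam133737 the region at the start of Lcmt2 (chr2:121140537-121140840) had 0.752 ppm against 0.323 with Abcam76013 (35 against 15 tags, ratio 2.33, counting interval 1.24 to 4.59). The same side held regions at the starts of Mccc1, Dcpp3, Aldh1a1, Xrcc4 and Smarcb1, and others near Fzd4, Nmt2, Pdpk1 and Cldn3. Aldh1a1 encodes a retinaldehyde dehydrogenase (0.773 against 0.366), Smarcb1 a core subunit of the BAF chromatin remodeller (0.752 against 0.366), and Cldn3 a claudin of epithelial tight junctions, whose region at 19.5 kb had 0.945 against 0.452. On the side of Abcam76013 the region at the start of Ptpra, a receptor tyrosine phosphatase (chr2:130450157-130450440), had 0.365 ppm with Abcam133737 against 0.990 with Abcam76013 (17 against 46 tags, 2.71 times higher, 1.52 to 5.04). Regions at the starts of Dicer1, Golgb1, Pcnt and Ift57 and others near Smg1, Nagk, Map3k4, Gpatch2 and Nsun7 followed. Dicer1, the endonuclease that makes mature miRNAs, had 0.559 against 1.25, and Pcnt, which encodes the centrosome protein pericentrin, 0.494 against 1.08.

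Of these 20 regions, 19 had a peak of both other antibodies, near the 96.8% of all regions of both lists that did. The exception, 27.7 kb from the Wnt receptor gene Fzd4, had 0.666 with Abcam133737, 0.301 with Abcam76013, 0.357 with Abcam133638 and no Millipore07-601 peak. At Ptpra the other antibodies gave 0.627 and 0.759, and at Lcmt2 0.813 and 0.648. Both therefore lay between the values of the pair at Ptpra, while at Lcmt2 Millipore07-601 lay above Abcam133737.

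Among all listed genes, the best region of both lists had a counting interval that excluded 1 at 3 of 183 genes (1.64%), where it did so in 1.18% of all regions of both lists. Lama3, a laminin chain of the epithelial basement membrane, had a ratio of 1.73 (1.13 to 2.66). Axl, a receptor kinase and target of YAP, had 0.724 (0.530 to 0.987), and Pgc, which encodes the gastric protease precursor progastricsin, 0.509 (0.301 to 0.841). The median ratio was 0.945 over the 25 alveolar type 1 genes with such a region, 0.947 over the 29 alveolar type 2 genes and 1.04 over the 28 general epithelial genes, beside 0.989 over all regions of both lists.

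Single-list regions were lower and shorter than regions of both lists. Median pileup was 0.408 ppm for Abcam133737 alone and 0.409 for Abcam76013 alone, or 19 tags each, and the 90th percentile was 0.559 in both. Median fold enrichment was 3.91 and 3.89, against 5.92 and 5.89 in regions of both lists. Of the single-list regions 48.6% and 47.1% had a −log10 q-value under 5, against 10.6% and 10.3% of those of both lists. Median peak length was 186 and 188 bp, against 279 and 284 bp in regions of both lists. In 39.8% and 39.6% of the single-list peaks the length was within 20 bp of the fragment length of the library, against 8.60% and 8.47%. The classes nevertheless overlapped in pileup: 220 regions of Abcam133737 alone (3.01%) and 273 of Abcam76013 alone (3.51%) exceeded the median of both lists in the same library. Of these, 171 and 205 had a local background, the tags against which the caller set the pileup, of at most 10.

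**Figure D3:**
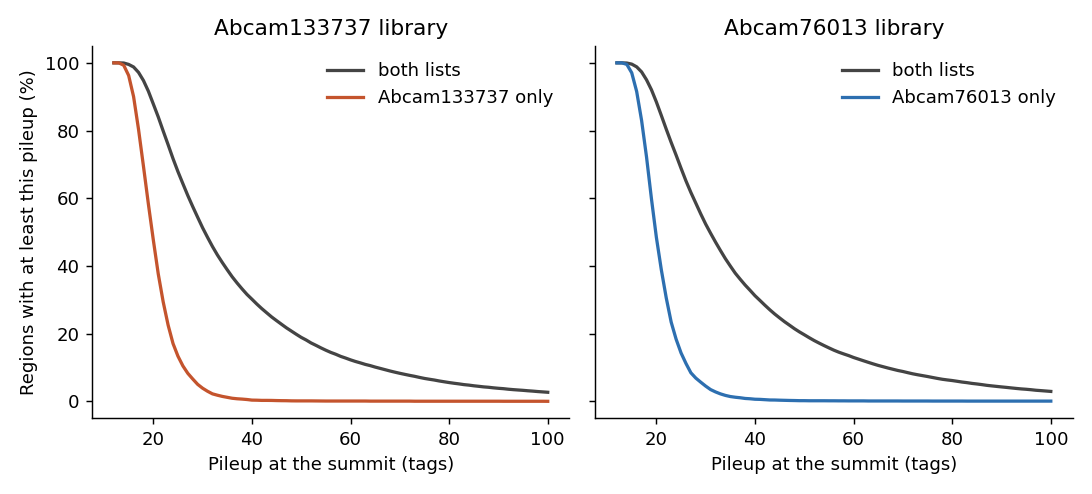
Share of regions with at least the pileup given on the horizontal axis in tags, for regions of both lists (grey) and single-list regions (colour), left in the Abcam133737 library and right in the Abcam76013 library. Both single-list curves fall off near their median of 19 tags, while those of both lists reach 50% at about their median of 30 tags.

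A region's pileup went with whether the other list held it. Of Abcam133737 regions with up to 14 tags 35.9% were also in the Abcam76013 list. The share was 52.1% at 15 to 19 tags, 72.5% at 20 to 24, 88.8% at 25 to 29 and 96.4% at 30 to 39, and 99.8% at 60 or more. For Abcam76013 the shares were 34.9%, 49.4%, 70.9%, 87.7% and 95.9%, and 99.7% at 60 or more. A summit of the other list lay within 500 bp of 9.76% of the regions of Abcam133737 alone and of 9.39% of those of Abcam76013 alone, and within 1 kb of 21.6% and 20.7%.

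Most single-list regions recurred in the lists of the other antibodies. Of the regions of Abcam133737 alone 60.1% had a peak of both Millipore07-601 and Abcam133638, 12.1% of Millipore07-601 alone and 13.9% of Abcam133638 alone. The remaining 1021, or 14.0%, were in neither (exact interval 13.2% to 14.8%). For Abcam76013 alone the shares were 59.2%, 13.4% and 13.5%, with 1085 in neither (13.9%, 13.2% to 14.7%). Both classes therefore recurred alike, in 86.0% and 86.1% of cases, against 99.5% of the regions of both lists. With the other lists shortened to the length of the Abcam133737 list, recurrence was 59.5% and 59.2%, and 96.5% for regions of both lists.

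Recurrence also went with pileup. Single-list regions with up to 14 tags were in at least 1 other list in 67.4% (Abcam133737) and 67.2% (Abcam76013) of cases, and those with 25 to 29 tags in 95.8% and 96.7%. Above 60 tags the shares fell to 55.6% of 9 regions and 53.8% of 13. Single-list regions in both other lists had median pileups there of 0.558 (Millipore07-601) and 0.536 (Abcam133638). Those values were the same for both single-list classes, and above the 0.430 the same regions had in their own library.

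**Figure D4:**
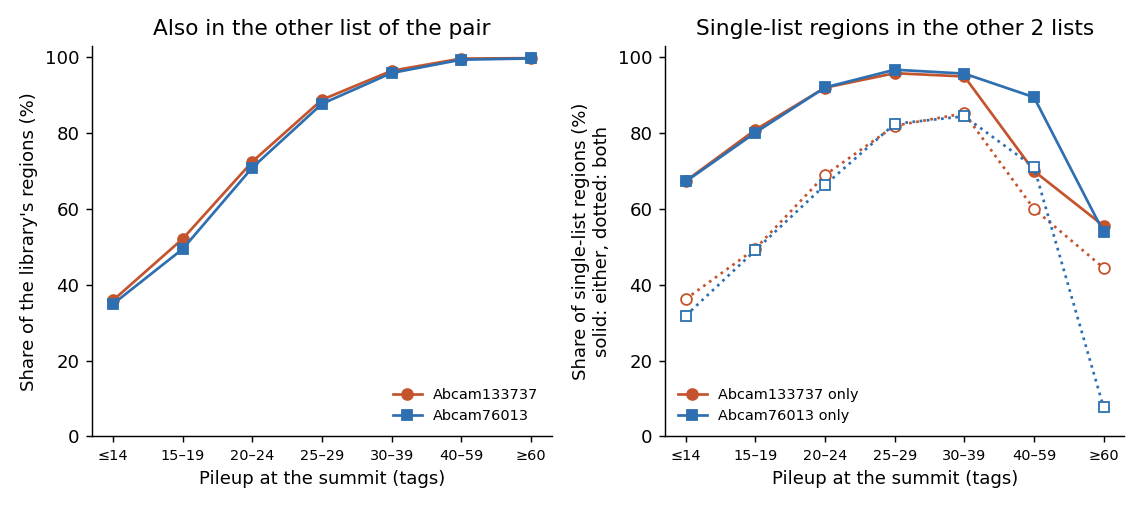
Left, share of the regions of each library that the other list of the pair also held, by pileup at the summit in tags. Right, share of the single-list regions that had a peak of Millipore07-601 or Abcam133638 (solid, filled) or of both (dotted, open); the last points rest on 9 and 13 regions. The left curves rise from 35.9% and 34.9% to 99.8% and 99.7%, and the right ones rise to 95.8% and 96.7% and then fall.

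The highest pileups of single-list regions came from 1 stretch of high local background. All 5 of the highest regions of Abcam133737 alone and all 5 of Abcam76013 alone lay inside Sfi1, on chromosome 11 between 3135708 and 3197742. Their pileups were 1.93 to 3.27 and 2.45 to 2.82 ppm. The local background of these 10 regions, recovered from pileup and fold, was 50.3 to 92.4 tags, where the genome-wide value was 4.86 and 4.93, and their fold enrichment was at most 1.82. Sfi1 held 23 regions of both lists beside 5 and 8 single-list ones, and those of both lists had a background of 38.2 to 114 tags and a fold of up to 3.30. A background over 10 tags was found in 522 regions of both lists (1.58%), in 65 of Abcam133737 alone (0.889%) and in 93 of Abcam76013 alone (1.19%), and without them the 3 classes held 68.6%, 15.3% and 16.2% of the regions. The highest pileups of both lists lay in such places too, inside Aida (5.74 and 5.96 ppm, background 193 tags in each) and on chromosome 17 near position 39846288.

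With a background of at most 10 tags, a limit set after the values were seen, the highest regions of Abcam133737 alone reached 1.01 ppm, 47 tags. They lay 215 kb from Plekhb2, inside Sh3rf3, at the start of Lmna, inside Nfia, which encodes a nuclear factor I protein, and 5.55 kb from Mex3a. The highest of Abcam76013 alone was inside Ctnnd1, which encodes the cadherin partner p120 catenin (1.16 ppm, 54 tags, chr2:84635714-84636048), and the next lay 309 kb from Thbs1, 284 kb from Hlx and inside Hecw2 and Adcy5. All 10 recurred in both other lists, but they were chosen for high pileup, with which this recurrence rose up to 39 tags. Of all regions of Abcam133737 alone and of Abcam76013 alone 60.1% and 59.2% did so. At 30 to 39 tags the shares were 85.2% and 84.4%. At 40 to 59 tags, with any background, 30% of 20 and 10.5% of 38 were in neither other list. With a background of at most 10 tags, the highest in neither lay inside Uck2 (Abcam133737 alone, 0.752 ppm, 35 tags) and Tlcd4 (Abcam76013 alone, 0.947 ppm, 44 tags). The strongest regions of both lists under the same limit lay inside Slc26a9, a chloride transporter of airway and stomach epithelium (4.79 and 4.50 ppm), 11.1 kb from Mycbp (4.38 and 4.88), inside Atf6, a sensor of the unfolded protein response (4.75 and 4.52), 50.3 kb from Nrep (4.32 and 4.71) and inside Tnrc6a (4.62 and 4.41). The single-list maxima were thus lower than these by more than 3 ppm.

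Regions of the pair that neither other antibody showed were few, 149 of 33099 (0.450%). Their median pileup, as the mean of the 2 libraries, was 0.387 ppm, below the 0.408 and 0.409 of all single-list regions. It was not below that of single-list regions in neither other list, 0.365 (Abcam133737) and 0.387 (Abcam76013). The highest were again in places of high background, inside Sfi1 (2.60 and 2.47), A530032D15Rik (1.29 and 1.70) and Jarid2 (1.35 and 1.44), with backgrounds of 24.4 to 80.3 tags. The highest with a background of at most 10 tags were 162 kb from Cpxcr1 on chromosome X (0.666 and 0.689) and inside Ctsc, which encodes cathepsin C (0.602 and 0.710).

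The single-list classes differed in position. A gene end, the start or end of a protein-coding gene, lay within 1 kb of the summit of 24.1% of the regions of Abcam133737 alone (23.1% to 25.1%), of 18.2% of those of Abcam76013 alone (17.3% to 19.1%) and of 22.7% of those of both lists (22.2% to 23.1%). The difference between the single-list classes was 5.88 percentage points, with a half-width of 1.31 from counting. Regions further inside a gene were 46.2%, 50.0% and 46.9%, and those outside genes 29.7%, 31.8% and 30.4%, in the same order. The median distance to a gene end was 9.12 kb (8.47 to 9.90), 12.1 kb (11.5 to 12.9) and 10.5 kb (10.2 to 10.9). That Abcam133737 alone lay above both lists did not hold when peaks up to 500 bp apart were merged: the shares were then 20.3% for Abcam133737 alone, 14.8% for Abcam76013 alone and 22.1% for both lists. For transcription starts it did not hold at like pileup from 15 to 39 tags either, as given below.

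Most of the difference lay at transcription starts. On chromosomes with listed starts, 21.1% of the regions of Abcam133737 alone had a start within 1 kb (20.2% to 22.1%), 15.9% of those of Abcam76013 alone (15.0% to 16.7%) and 20.1% of those of both lists (19.6% to 20.5%). A gene end with no listed start within 1 kb was near 6.74% (6.17% to 7.35%), 5.56% (5.05% to 6.10%) and 5.94% (5.68% to 6.20%), a smaller difference in the same direction. The share at starts was higher for Abcam133737 alone on 17 of 19 chromosomes, the exceptions being 15 and 16. It was higher in each group of pileup up to 39 tags: 22.6% against 17.8% at 15 to 19 tags, 19.5% against 13.9% at 20 to 24, 17.8% against 13.6% at 25 to 29 and 15.5% against 8.59% at 30 to 39. The intervals were apart at 15 to 19 tags (21.2% to 24.0% and 16.6% to 19.1%) and at 20 to 24 (17.9% to 21.1% and 12.6% to 15.3%). In the other groups they overlapped. Regions of both lists, placed by their tags with Abcam133737, had shares of 23.4%, 22.4%, 22.2% and 22.0% from 15 to 39 tags. Each was above the share of Abcam133737 alone in the same group, with overlapping intervals at 15 to 19 tags. At up to 14 tags the share was 29.1% for both lists and 31.8% for Abcam133737 alone. Within regions of both lists, those at least 1.5 times higher with Abcam133737 had a start within 1 kb in 25.7% (22.4% to 29.1%), and those higher with Abcam76013 in 18.6% (16.3% to 21.2%). The median log2 ratio was nevertheless close to 0 in each place, -0.00 at starts and -0.03 further away.

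**Figure D5:**
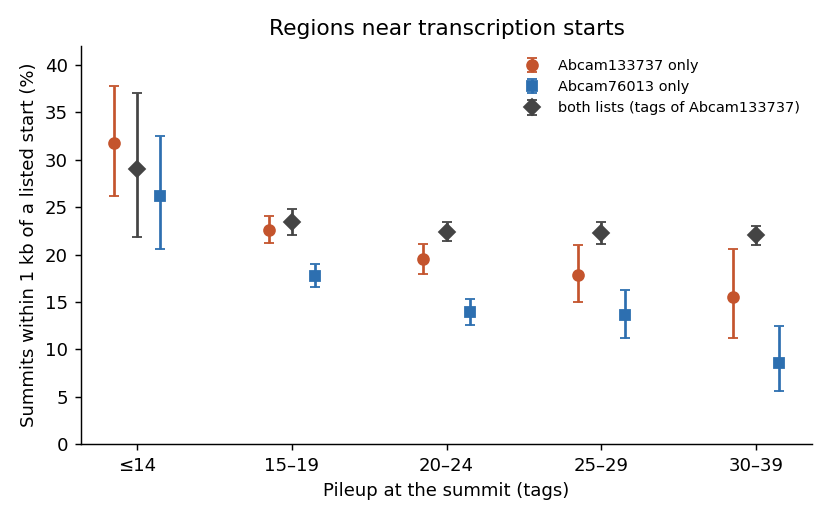
Share of regions with a listed transcription start within 1 kb of the summit, by pileup at the summit in tags, for both single-list classes and for regions of both lists placed by their tags with Abcam133737; bars are exact 95% intervals that cover counting error only. The points of Abcam133737 alone lie above those of Abcam76013 alone in all 5 groups, from 31.8% against 26.2% at up to 14 tags to 15.5% against 8.59% at 30 to 39 tags. The bars of these 2 classes are apart only at 15 to 19 and 20 to 24 tags.

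The share at starts also differed with the other antibody that shared a region. Regions of Abcam133737 alone that recurred with Abcam133638 but not Millipore07-601 had a start within 1 kb in 27.6% of cases, and those with Millipore07-601 but not Abcam133638 in 10.6%. For Abcam76013 alone the shares were 22.9% and 9.07%, and for regions of both lists 25.8% and 7.65%. Among regions in both other lists the share was 22.8% for Abcam133737 alone and 16.7% for Abcam76013 alone. In neither other list it was 16.8% and 11.8%. The share was thus higher for Abcam133737 alone in each of these 4 groups. The intervals were apart for regions in both other lists and in neither, and they overlapped for those with Abcam133638 (24.8% to 30.5% and 20.4% to 25.6%) and those with Millipore07-601 (8.58% to 12.8% and 7.37% to 11.02%).

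Most genes nearest to a single-list region were also nearest to a region of both lists. The nearest genes numbered 5000 for Abcam133737 alone, 5097 for Abcam76013 alone and 11535 for both lists, and 78.5% and 80.0% of the former were also nearest to a region of both lists, against 52.7% of all 21883 genes. The single-list classes had 2304 nearest genes in common, 46.1% and 45.2% of each, where 23.3% of all genes were nearest to a region of Abcam76013 alone and 22.8% to one of Abcam133737 alone. Foxp1, a forkhead repressor of lung epithelium, had 13 regions of Abcam133737 alone beside 28 of both lists, as many as Scaf8 (13 beside 32, with a median background of 9.74 tags), and Mecom, Magi1 and Nav2 had 11 each. Zfp608 had 12 of each single-list class beside 38 of both lists. Of Abcam76013 alone, Lpp had 11 beside 22, Cadm1 9 beside 23 and Hnf4g 9 beside 8. Fgfr2, the receptor through which FGF10 drives lung branching, was among the genes with 8, beside 25 of both lists, and is named for its role.

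Single-list regions were common near genes of lung epithelium. A region of both lists lay within 10 kb of 29 of 30 alveolar type 2 genes and 25 of 30 alveolar type 1 genes, where 54.3% of all protein-coding genes had one. A region of Abcam133737 alone lay near 19 and 14 of these 30, against 21.2% of all genes, and one of Abcam76013 alone near 17 and 13, against 19.9%. Of 30 general epithelial genes 28 had a region of both lists, 20 one of Abcam133737 alone and 12 one of Abcam76013 alone. Of 26 genes of the YAP and TEAD pathway, which senses cell stretch and shape, the numbers were 20, 9 and 12. Within 10 kb the alveolar and epithelial lists were thus above the share of all genes in all 3 classes. This was not particular to them, since the YAP and TEAD list and the housekeeping list below were above it too. Within 2 kb a region of Abcam76013 alone lay near 3 of 30 alveolar type 1 and 3 of 30 alveolar type 2 genes (10.0% each), close to the 9.65% of all genes, and one of Abcam133737 alone near 8 and 9, against 11.3%. The other lists differed from this. Abcam76013 alone lay near 8 of 30 general epithelial (26.7%) and 8 of 26 YAP and TEAD genes (30.8%), and Abcam133737 alone near 10 (33.3%) and 3 (11.5%).

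Genes of other cell types had lower shares than the alveolar lists within 10 kb. They lay on either side of the shares of all genes, 54.3%, 21.2% and 19.9%. Of 25 mesenchymal genes 10 had a region of both lists, 5 one of Abcam133737 alone and 4 one of Abcam76013 alone, and of 25 immune genes 6, 6 and 3. Of 25 endothelial genes the numbers were 15, 3 and 3, and within 2 kb 2 had a region of both lists, against 38.6% of all genes. Airway genes gave 9, 3 and 4 of 15 for secretory cells, which include Scgb1a1, and 9, 2 and 3 of 15 for ciliated cells. Of 25 gastrointestinal genes 7, 2 and 4 had one, and of 12 thyroid genes 3, 2 and 1. The 25 housekeeping genes, which stand for no cell type, were above all genes in each class with 23, 9 and 9 (92.0%, 36.0% and 36.0%). Their share for both lists exceeded the 83.3% of the alveolar type 1 genes.

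Few listed genes had peaks of 1 antibody of the pair only, in shares near those of all genes. Within 10 kb, 10 of 282 listed genes had a peak of Abcam133737 and none of Abcam76013, beside 3.77% of all genes, and 7 had the reverse, beside 3.31%. The former were the epithelial factor Ehf, the epithelial protease gene St14, Amot, Tagln, Egfl7, Cd3g, Ly6g, Cdx2, Hhex and Slc26a4. The latter were Myrf, Fat4, Mob1a, Gabrp, Apoa1, Dio1 and B2m. Another 5, Lmo7, S100a6, Lyz2, Lats2 and Gli1, had a region of each single-list class and none of both lists.

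The regions at these 22 genes were low, from 0.301 to 0.516 ppm for Abcam133737 (median 0.430) and from 0.323 to 0.667 for Abcam76013 (median 0.441). All but 2 of the 33 recurred in another list, beside 86.0% and 86.1% of all regions of the 2 single-list classes. Ehf had 0.387 ppm at 0.008 kb from a gene end, with Millipore07-601 at 0.558, and 0.451 at 7.86 kb, with Abcam133638 at 0.514. St14 had 0.516 at 0.01 kb from an end and 0.430 at 2.03 kb, both with peaks of both other antibodies. B2m, the light chain of MHC class I, had 3 regions of Abcam76013 alone within 10 kb. That of 0.473 ppm lay 0.006 kb from an end of B2m. Those of 0.667 and 0.646 ppm lay 5.34 and 7.78 kb away, inside the neighbouring genes Patl2 and Trim69. Each of the 3 recurred in both other lists. The exceptions were the Abcam76013 region 3.57 kb from Myrf, a membrane-bound transcription factor (0.366 ppm, 17 tags), and the Abcam133737 region 0.345 kb from an end of Slc26a4, the anion exchanger pendrin of thyroid and inner ear (0.301, 14 tags).

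Some single-list regions of the pair were neighbours. At Lyz2, which encodes a lysozyme of alveolar type 2 cells and macrophages, Abcam133737 had a peak from 117284604 to 117284791 on chromosome 10 with 0.516 ppm, and Abcam76013 one from 117285030 to 117285356 with 0.409. Neither overlapped the other, and each recurred in both other lists. Hopx had a region of both lists at 1 start (chr5:77114886-77115351). At another start, not close to the first, the gene had a region of Abcam133737 alone (chr5:77095160-77095326, 0.365 ppm, 17 tags). Millipore07-601 (0.442) and Abcam133638 (0.536) also showed the latter. Aqp5, the water channel of alveolar type 1 cells, had its strongest region of both lists 0.345 kb from its end (1.85 and 2.00). Weaker regions of both lists, of 0.344 to 0.581 ppm, lay 0.383, 1.08 and 1.29 kb from a gene end. Aqp5 also had a region of Abcam133737 alone 1.12 kb away (0.580). Another of Abcam133737 alone lay 0.168 kb from its start (0.365 ppm, and 0.447 with Abcam133638). A region of Abcam76013 alone lay 6.02 kb away (0.538), 0.464 kb from the neighbouring gene Aqp2.

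Other listed genes had single-list regions beside their regions of both lists or further off. Of Abcam133737 alone, Dsp, the desmosome plaque protein desmoplakin, had one with 0.795 ppm at 4.30 kb, where Millipore07-601 gave 0.790 and Abcam133638 0.514. Esrp1, the epithelial splicing regulator, had one with 0.709 and Elf5, an ETS factor of lung epithelium, one with 0.559, where Millipore07-601 gave 2.21. Of Abcam76013 alone, Yap1, the effector of the Hippo pathway, had 2 of 0.559 each at 1.5 and 0.801 kb. Timp3 had one with 0.581 at 2.56 kb and Chil1 one with 0.603 at 6.60 kb. Of the 20 such regions with the highest pileup, 17 recurred in both other lists and the remaining 3, near Tfrc, Chil1 and Aqp5, in 1. Of all single-list regions with 25 to 29 tags, 81.9% (Abcam133737) and 82.5% (Abcam76013) recurred in both other lists.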

How the data were processed

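Peak lists of NKX2-1 ChIP-seq from wild-type mouse lung at postnatal day 10 were used, 1 library for each of 4 antibodies, of which Abcam133737 and Abcam76013 form the pair. The authors ran MACS 2.1.2 on each library against 1 input, per the file headers, with a q-value cutoff of 0.05, 1 tag kept per position and an effective genome size of 1.87 Gb. The other tools, per the submitters' processing notes, were Bowtie, SAMtools, Trimmomatic, FastQC and deepTools, and the build was mm10. The deposited values are, per the file headers, the signal (tags piled up at a summit), the fold, a ratio of that signal to the local background, and −log10 of the p-value and of the q-value. They are the authors' own values per peak, made from single libraries.

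From these, Python 3.11.15 with NumPy 2.4.6, pandas 2.3.3 and SciPy 1.17.1 merged the lists (overlap of at least 1 bp), divided the pileup of the highest peak of a region by the filtered tags in the header, and took log2 ratios, with 1.5 as the fold of size. Shares have exact Clopper-Pearson intervals, medians order-statistic intervals and ratios exact conditional binomial intervals from the tags, all at 95%, and no test was run. Merging and ratios were tested on simulated data. The local background is the value that turns a pileup into its fold with 1 tag added to each. Genes were 21883 protein-coding genes of the RefSeq table (GRCm38.p6), and 282 listed genes all matched it. Starts of chromosome 18 are not analysed here. Exons and introns were not told apart.

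The members and the gene lists were chosen with earlier results of these data known. Named regions were the best region of both lists at each anchor gene, the 10 largest ratios each way, the 5 highest regions of each class, the 10 highest single-list regions of each class near listed genes, the 10 highest regions of the pair in neither other list, and promoter windows of the highest regions and of anchor genes. Regions named under a background limit, and those at genes with single-list regions only, were chosen after their values were seen.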

Additional observations from a re-analysis of the deposited data

How the results depend on the processing

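Depth limits these comparisons: a median single-list region rests on 19 tags, and with 1 library per antibody neither lot nor handling can be told apart from the antibody. No paired analysis was possible because each antibody has 1 library and no test was made. Class sizes stayed within 1.5 times of the values above at a −log10 q-value of at least 5, under a reciprocal overlap of 50%, with summits within 100 bp, with a gap of up to 500 bp and, added after seeing the data, with a local background of at most 10 tags. At a fold enrichment of at least 5 they were 18378 (both lists), 3871 (Abcam133737 alone) and 4147 (Abcam76013 alone), and for the 10000 highest peaks of each list 8439, 1542 and 1535, both smaller by construction since fewer peaks entered.

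The median log2 ratio was 0 by construction after scaling by the median ratio, and -0.0019 with fold enrichment in place of pileup, where 1109 regions passed the fold of 1.5 on the side of Abcam133737 and 1155 on that of Abcam76013. The cause of that rise was not tested. A fold of 2 left 12 and 34 regions, and a −log10 q-value of at least 5 left 411 and 634. At that q-value median pileup was 0.709 ppm (both lists), 0.473 (Abcam133737 alone) and 0.473 (Abcam76013 alone), and median length 296, 201 and 205 bp. With a gap of up to 500 bp the pileup of Abcam76013 alone was 0.430.

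Recurrence in at least 1 other list was 96.9%, 77.3% and 78.9% (both lists, Abcam133737 alone, Abcam76013 alone) with summits within 100 bp, 99.7%, 87.5% and 87.3% with a gap of up to 500 bp, and 96.5%, 59.5% and 59.2% with the other lists shortened.

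The share at gene ends stayed higher for Abcam133737 alone than for Abcam76013 alone in each of the 5 alternatives, by 4.70 to 6.32 percentage points. In the order both lists, Abcam133737 alone and Abcam76013 alone, it was 28.5%, 30.9% and 24.6% within 2 kb. With a gap of up to 500 bp it was 22.1%, 20.3% and 14.8%, and for listed starts 20.1%, 21.1% and 15.9%, both added after seeing the data. At a −log10 q-value of at least 5 it was 21.7% for both lists and 19.5% for Abcam76013 alone. Of the 282 listed genes, 48 had a region of Abcam133737 alone and 36 one of Abcam76013 alone within 2 kb, and 155 and 161 within 50 kb, where the order of the classes was the other way.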
